A study of Homo sapiens with 6 samples.

Results

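Heterogeneous nuclear ribonucleoproteins (hnRNPs) are RNA-binding proteins that coat nascent transcripts in the nucleus. The 10 hnRNP genes described here were HNRNPA1, HNRNPA2B1, HNRNPC, HNRNPD, HNRNPDL, HNRNPF, HNRNPH1, HNRNPK, HNRNPM and HNRNPU, chosen by symbol in the GENCODE v29 annotation. They are 10 of the 18750 genes with counts in the data, and all 10 passed the filter that left 13750 genes for testing. Of their 194 annotated transcripts, 186 were in the count table, and 125 of these passed the filter on low counts.

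The study compared cells of HCT116, a long-established human line from a colorectal carcinoma, transfected with an siRNA against the long non-coding RNA AC010789.1 (si-AC010789.1) with the same cells transfected with a negative control siRNA (siRNA-NC). Each group had 3 replicates, and 1 siRNA sequence was used. The replicates were biological repeats from cells of different generations per the study's text, so p-values measure the spread between these 3 repeats. The study reports that it verified the knockdown in its RNA sequencing samples. The level of AC010789.1 was not analysed here, and the group labels were therefore not checked against their target in these counts.

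Total counts ranged from 11277222 to 13443866 per library, and the 10 genes together took between 0.631% and 0.670% of them. The labelled cell type was checked by markers, as far as the table lists them. It holds only transcripts with a count in at least 1 library, and genes without a row were not analysed here. Of 15 colorectal epithelial markers, 9 had rows. Of these, KRT8, KRT18, MUC13, CLDN7 and EPCAM reached 1 CPM (counts scaled to library size with TMM factors) in every library. CLDN4 varied widely between libraries, from 0.320 to 28.9 CPM. CDH1 was at 0.675 to 1.05 CPM, and CLDN3 and LGALS4 were at most at 0.349 CPM. The 9 summed to 1713 to 1920 CPM in siRNA-NC against 1400 to 1790 CPM in si-AC010789.1. KRT19, KRT20, CDX1, CDX2, VIL1 and CEACAM5 had no row. Of 10 mesenchymal markers, 7 had rows and 6 reached 1 CPM in every library, and the list, mostly VIM, summed to 869 to 1016 CPM in siRNA-NC against 755 to 927 CPM in si-AC010789.1. The blood markers with rows (2 of 6) and the endothelial ones (2 of 4) summed to at most 1.60 and 2.51 CPM. The colorectal label could thus be checked only in part, the identity of the line was not tested, and HCT116 is used here as the labels give it.

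hnRNP proteins bind pre-mRNA and take part in splice site choice, export, stability and translation of mRNA. Many of their own genes are spliced in several ways. GENCODE sorts transcripts into types. A protein_coding transcript carries an open reading frame. A nonsense_mediated_decay (NMD) transcript carries a stop codon well upstream of its last exon junction, a feature that the decay machinery recognises in translated mRNA. A retained_intron transcript is annotated as keeping intron sequence between coding exons. Of the 45 retained_intron transcripts of the hnRNP genes described here, 20 held a whole intron of the main coding transcript of their gene. HNRNPC-210, HNRNPA1-212 and HNRNPK-209, the most abundant of this type in their genes, were not among the 20. Shares of this type therefore follow the annotation and do not measure retention of whole introns. For each gene, counts were summed over all its transcripts (the gene sum), and the share of each type was its part of the gene sum.

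All 23 NMD transcripts of these genes in the table had their annotated stop more than 50 bases before the last junction, at a distance of 75 to 1631 bases. For 9 of them the stop was the same as in a complete coding transcript of the gene, and for 14 it was another one. The contexts of 4 such stops, 1 from each of the genes whose NMD share is described below, are printed 5′ to 3′ from the GENCODE v29 transcript sequences, with the stop codon in capitals. They lie at chr4:82355334-82355336 (minus strand) in HNRNPD-211, chr9:83974569-83974571 (minus) in HNRNPK-207, chr19:8463599-8463601 (plus) in HNRNPM-214 and chr1:244848809-244848811 (minus) in HNRNPU-208 of GRCh38.
HNRNPD-211: tacaaaccatacTAAattattccattt
HNRNPK-207: gagtatcagtgcTGAtattgaaacaat
HNRNPM-214: atgtgctgttgtTGAattcaagatgga
HNRNPU-208: aaagggcccaacTAAatgttccagtga
In HNRNPD-211 this is the stop that complete coding transcripts also use, and the last junction lies 137 bases downstream, in the 3′ UTR. In the other 3 the stop was not that of a complete coding transcript, and the last junction lay 238, 1631 and 124 bases downstream for HNRNPK-207, HNRNPM-214 and HNRNPU-208.

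HNRNPU carried the largest number of counts on retained_intron transcripts. Its 2 most abundant transcripts of this type, HNRNPU-209 and HNRNPU-217, keep intron 3 of 13, a 1986-base intron at chr1:244860475-244862460 (minus strand). Its splice sites are shown with the first and the last intron bases in capitals, after 6 exon bases at the 5′ site and before 4 exon bases at the 3′ site.
HNRNPU intron 3, 5′ splice site: atacttGTaagtgaag
HNRNPU intron 3, 3′ splice site: tatttgatataattacAGataa

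HNRNPU and HNRNPD each have coding transcripts that differ by 57 bases (19 residues). In HNRNPU these bases are the end of exon 1 (chr1:244863617-244863673, minus strand), which HNRNPU-226 contains and HNRNPU-205 lacks because an inner 5′ splice site is used. In HNRNPD they form exon 2 (chr4:82371528-82371584, minus strand), and a further 147-base exon, exon 7 (49 residues, chr4:82356537-82356683), can also be skipped. The junctions that tell the forms apart are shown with the downstream exon in capitals. For the inner splice site of HNRNPU the GT is in capitals.
HNRNPU-226, longer exon 1 to exon 2: ctccggcggcggGGGACGGCAAAA
HNRNPU-205, shorter exon 1 to exon 2: agcaggcgggagGGGACGGCAAAA
HNRNPU inner 5′ splice site in exon 1: cgggagGTaagaagaa
HNRNPD-201, exon 1 to exon 2: ggaggatgaaggCCATTCAAACTC
HNRNPD-202, exon 1 to exon 3: ggaggatgaaggGAAAATGTTTAT
HNRNPD-201, exon 6 to exon 7: gaagaggtggtgGCCCCAGTCAAA
HNRNPD-203, exon 6 to exon 8: gaagaggtggtgACCAGCAGAGTG

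Gene sums of the 10 hnRNPs differed little between the groups. None of the 10 passed an adjusted p of 0.05 in edgeR's quasi-likelihood test, where 0.982% of all 13750 genes did (135 genes). At an unadjusted p under 0.05 there were 3 of 10, all lower in si-AC010789.1, against 17.2% of all genes and 8.92% for lower genes alone. The same 3 genes, HNRNPF, HNRNPK and HNRNPA1, were the members whose groups did not overlap, a pattern seen in 25.1% of all genes. The median log2 fold change was 0.0052 over the 10 genes and -0.00066 over all genes tested.

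HNRNPF (chr10:43385617-43409166, minus strand, GRCh38), which binds G-rich sequences and regulates splicing, had 752, 734 and 740 CPM in siRNA-NC replicates 1 to 3 and 648, 630 and 659 CPM in si-AC010789.1. Every si-AC010789.1 library was below every siRNA-NC library. The log2 fold change was -0.20 (standard error 0.037), 13.03% less, with an adjusted p of 0.0736 from edgeR and 0.0111 from DESeq2. It was the only gene sum of the 10 that DESeq2 called, and DESeq2 called 3.37% of all genes. Its main transcript HNRNPF-201 had 7979, 9111 and 9306 counts in siRNA-NC against 6925, 7429 and 7617 in si-AC010789.1.

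HNRNPK (chr9:83968083-83980616, minus strand), a KH-domain protein that binds C-rich RNA and DNA, had 1086, 1052 and 1053 CPM in siRNA-NC against 998, 910 and 942 CPM in si-AC010789.1. The groups did not overlap. The log2 fold change was -0.16 (standard error 0.047, edgeR adjusted p = 0.162). HNRNPA1 (chr12:54280193-54287088, plus strand), which represses splice sites and shuttles between nucleus and cytoplasm, had 368, 338 and 343 CPM against 322, 306 and 311 CPM. Its log2 fold change was also -0.16 (standard error 0.049, edgeR adjusted p = 0.183). A two-sided exact permutation test gave p = 0.1 for each of the 3 genes, which is the lowest value possible with 3 libraries a group. In bulk samples, less RNA per cell and fewer cells that express a gene cannot be told apart.

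The other 7 genes overlapped between the groups. HNRNPA2B1 (chr7:26173057-26201529, minus strand), which takes part in splicing and RNA transport, had the most counts, at 1751 ± 215 CPM in siRNA-NC against 1804 ± 187 CPM in si-AC010789.1 (mean ± SD over 3 libraries). HNRNPU (chr1:244840638-244864560, minus strand), a scaffold protein that binds chromatin and nascent RNA, was at 1072 ± 49.3 and 1099 ± 40.9 CPM. HNRNPC (chr14:21209136-21269494, minus strand), which binds uridine tracts in pre-mRNA, was at 401 ± 50.4 and 381 ± 46.3 CPM. HNRNPH1 (chr5:179614178-179634784, minus strand), a G-tract binder related to HNRNPF, was at 403 ± 25.2 and 396 ± 16.4 CPM. HNRNPM (chr19:8444767-8489114, plus strand), another splicing regulator, was at 316 ± 54.4 and 343 ± 15.9 CPM. Its siRNA-NC replicate 1 (253 CPM) lay below the other 5 libraries (326 to 358 CPM), and the log2 fold change of 0.12 became -0.02 without it. HNRNPD (AUF1, chr4:82352498-82374503, minus strand), which binds AU-rich elements and affects mRNA decay, was at 235 ± 14.1 against 241 ± 26.4 CPM. Its relative and neighbour HNRNPDL (chr4:82422564-82430408, minus strand) was at 276 ± 5.43 against 286 ± 7.16 CPM. The 95% intervals of the 7 log2 fold changes all included 0 and stayed between -0.30 and 0.36.

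**Figure D1:**
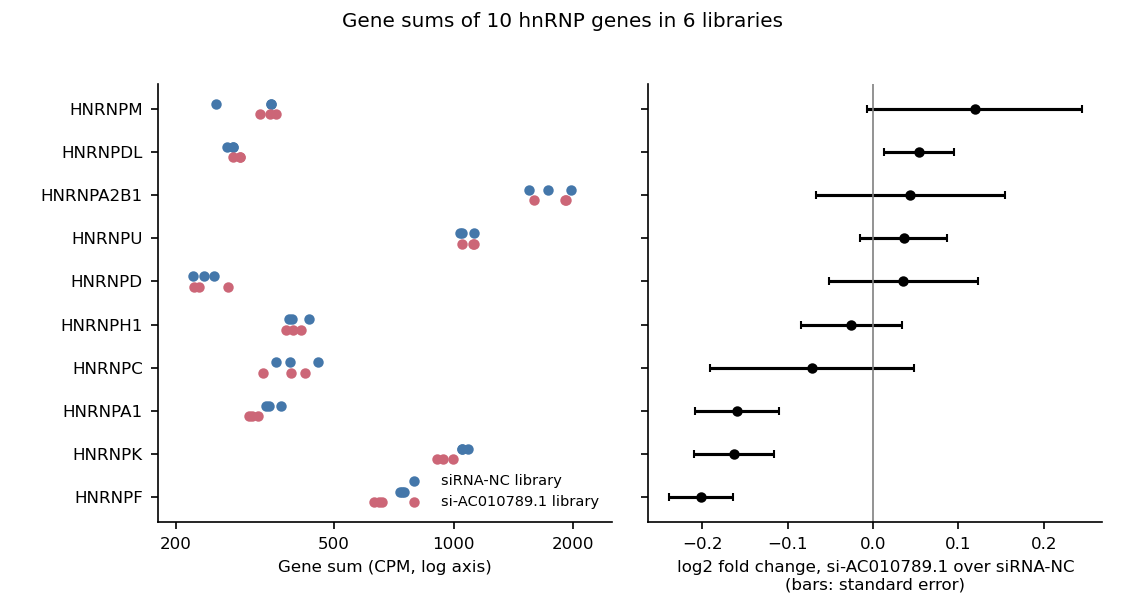
Left, gene sums in CPM on a log axis, with 1 point per library. Right, log2 fold change of si-AC010789.1 over siRNA-NC from edgeR with its standard error. HNRNPF, HNRNPK and HNRNPA1 have separate groups and lie at -0.20 to -0.16, and the other 7 genes overlap.

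Levels were compared between genes only per length, as CPM per kilobase of transcript summed over transcripts. On this scale HNRNPA2B1 was highest (mean 996, range over libraries 866 to 1130) and apart from all others. HNRNPK (406 to 487), HNRNPH1 (362 to 460), HNRNPU (348 to 442), HNRNPF (308 to 371) and HNRNPC (259 to 340) followed, and each of them overlapped the next in range. HNRNPD (144 to 234) lay below HNRNPC and overlapped HNRNPA1 (168 to 203) and HNRNPM (122 to 159), which did not overlap each other. HNRNPDL was lowest, at 81.3 to 113. These values leave out reads counted on copies of a gene, described next, so the place of HNRNPA1 in particular is uncertain. They also depend on how counts were divided among transcripts of different length.

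Part of the reads of HNRNPA1 may be counted elsewhere, because the genome holds many processed copies of this gene. GENCODE v29 lists 75 genes named as HNRNPA1 pseudogenes, and 21 were in the table. They held 15169, 19262 and 18381 counts in siRNA-NC against 14183, 15637 and 15065 in si-AC010789.1, which is 3.65 to 4.30 times the counts of HNRNPA1 itself. HNRNPA1P48, HNRNPA1P7 and HNRNPA1P10 took most of them. HNRNPA1P48 is annotated as a protein_coding gene and was included by its name. Of the 31-base windows of their most abundant transcripts, 52.3%, 77.7% and 83.6% were found unchanged in HNRNPA1 transcripts. Scaled for depth, the pseudogene sum was 1392 ± 55.2 CPM in siRNA-NC against 1236 ± 14.9 CPM in si-AC010789.1, with separate groups. Adding them to HNRNPA1 gave a log2 fold change of -0.17 (edgeR adjusted p = 0.0986). HNRNPK had 3 such copies with 1720 to 2367 counts (0.150 to 0.169 times the gene), and HNRNPC had 3 with 1515 to 1775 counts (0.294 to 0.428 times). The levels of these 3 genes are uncertain to that extent.

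Transcript types split the 10 genes into distinct profiles. HNRNPF had neither NMD nor retained_intron transcripts. HNRNPA1, HNRNPA2B1, HNRNPDL and HNRNPK were at least 89.9% protein_coding in every library. HNRNPH1 and HNRNPU had the largest retained_intron shares, 41.0% and 34.8% over all libraries together, more than in 90.9% and 87.8% of the 7154 tested genes that have this type annotated. HNRNPM had the largest NMD share (12.4%), more than in 75.2% of 5320 genes. The median share over the members was 5.45% for retained_intron (8 genes) and 3.32% for NMD (9 genes), beside 5.68% and 2.85% over all tested genes with the type. For comparison, the median over the SR splicing factors, the other large family of splicing regulators, was 40.5% for retained_intron (10 genes) and 6.01% for NMD (13 genes).

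**Figure D2:**
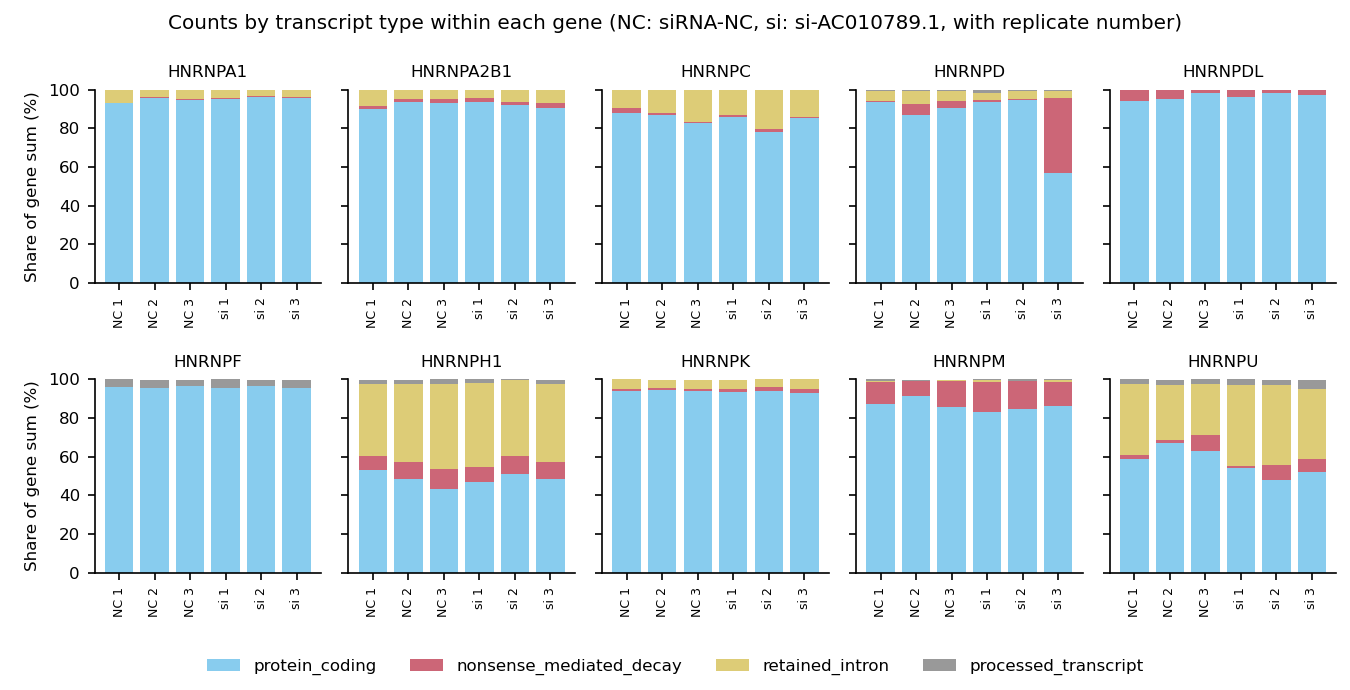
Share of each gene's counts by transcript type (y axis, percent), with 1 bar per library and 3 libraries per group. HNRNPH1 and HNRNPU carry large retained_intron shares in all 6 libraries, and the NMD share of HNRNPD reaches 38.9% in si-AC010789.1 replicate 3 and at most 6.07% in the others.

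Between the groups, type shares were tested by edgeR with the gene sum as offset. None of the 32 shares of the members passed an adjusted p of 0.05, beside 0.01% of 19982 shares of all genes, and 4 of 32 had an unadjusted p under 0.05 (4.78% of all). A limma test on log2 ratios also called 0 of them (0.0851% of all). The groups did not overlap for 4 of 32 shares, beside 11% of all. On the counts of a type themselves, 0 of 32 passed (0.122% of 23721 for all genes), 6 had an unadjusted p under 0.05 (10.2% of all), and DESeq2 called 1 (2.53% of all), the protein_coding counts of HNRNPF (log2 fold change -0.21, DESeq2 adjusted p = 0.00065).

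Among the 4 type shares whose groups did not overlap, the protein_coding share of HNRNPU differed most in percentage points and the retained_intron share of HNRNPD most on the log2 scale, and neither passed the test. The HNRNPU share was 59.0%, 67.1% and 63.2% in siRNA-NC against 54.2%, 47.8% and 52.3% in si-AC010789.1. All 3 si-AC010789.1 libraries lay below all 3 siRNA-NC libraries, by 11.7 percentage points on average. The log2 change of the share was -0.30 (standard error 0.069, unadjusted p = 0.00815, edgeR adjusted p = 0.721). With 11865 to 15035 counts behind each share, its 95% Wilson interval was narrow, 53.3% to 55.0% for the highest si-AC010789.1 library and 58.1% to 59.9% for the lowest siRNA-NC library, and covers counting error only.

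The retained_intron share of HNRNPU was 36.4%, 28.4% and 26.2% in siRNA-NC against 41.9%, 41.4% and 36.3% in si-AC010789.1. The groups met at 36.4% and 36.3%, so they overlapped slightly (log2 change 0.39, standard error 0.143, edgeR adjusted p = 1). As a level, retained_intron counts were separate, at 324 ± 50.6 CPM in siRNA-NC against 438 ± 29.9 CPM in si-AC010789.1 (log2 fold change 0.43, edgeR adjusted p = 0.340). HNRNPU-209, with intron 3 kept, had 1601, 1744 and 1663 counts against 2636, 2259 and 2182. Its log2 fold change was 0.55 (standard error 0.129, edgeR adjusted p = 0.544).

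HNRNPU overlaps COX20 on the other strand, by 3502 exonic bases. The overlap touches 4 of its transcripts in the table, among them HNRNPU-203 (retained_intron) and HNRNPU-208 (NMD), and whether the counting used strand is not given in the sources used here. Without these 4 transcripts, chosen after their values were seen, the protein_coding share was 62.3%, 69.8% and 72.4% against 58.4%, 55.7% and 58.0%, with the groups still apart. The retained_intron level without them was 278 ± 53.1 CPM in siRNA-NC against 359 ± 35.7 CPM in si-AC010789.1, and these groups overlapped, so the separation of that level was lost. The NMD share of HNRNPU varied between libraries of a group, from 1.78% to 8.07% in siRNA-NC and from 1.18% to 7.95% in si-AC010789.1, and HNRNPU-208 alone ranged from 83 to 1093 counts within siRNA-NC.

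Coding transcripts of HNRNPU differed by the end of exon 1. Transcripts named here and below that are neither the most abundant of their type in a gene nor among the 4 with separate groups and an absolute log2 fold change over 1 were singled out after their values were seen. HNRNPU-226 (825 residues), with the longer exon 1, had 2465, 2696 and 2854 counts in siRNA-NC against 3567, 3124 and 4564 in si-AC010789.1, with separate groups (log2 fold change 0.54, standard error 0.150, edgeR adjusted p = 0.696). HNRNPU-205 (806 residues), with the shorter exon 1, had 2615, 3505 and 103 counts against 583, 617 and 946. The low siRNA-NC replicate 3 was the library in which HNRNPU-214 and HNRNPU-201, whose exons lie 100% within those of HNRNPU-205, had 4155 and 1276 counts. In the other 5 libraries HNRNPU-214 had at most 317 counts and HNRNPU-201 had 0.

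Summed over these 3 coding transcripts with the shorter exon 1, the counts were 2818, 3552 and 5534 in siRNA-NC against 740, 934 and 946 in si-AC010789.1. In CPM this was 311 ± 90.7 against 72.0 ± 6.41, a ratio of 4.32. Of all coding counts with either end of exon 1, the shorter end took 53.3%, 56.9% and 66.0% in siRNA-NC against 17.2%, 23.0% and 17.2% in si-AC010789.1. Only 3 (shorter) and 1 (longer) of the 10 coding transcripts have these ends. The 302-residue form, which has neither, had 405, 2726 and 1025 counts in siRNA-NC against 2354, 443 and 1087 in si-AC010789.1. With transcripts of every type included, among them HNRNPU-209, which has the shorter exon 1 and was higher in si-AC010789.1, the shorter end took 53.4%, 56.1% and 63.4% against 39.6%, 41.0% and 39.3%. The groups did not overlap on either measure. Both were made after the values were seen and were not tested. Over all genes, the groups did not overlap for 11% of type shares and 14% of single transcripts. How reads shared by transcripts were divided is not given in the sources used here, and the junctions themselves were not counted.

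**Figure D3:**
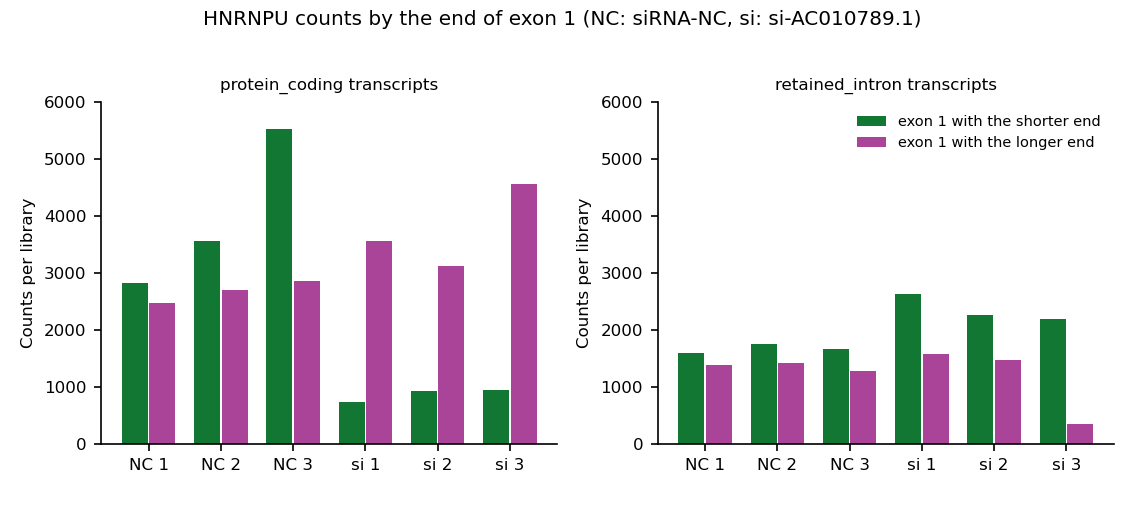
HNRNPU counts per library (y axis) of transcripts with the shorter and the longer end of exon 1, for protein_coding transcripts (left; 3 shorter, 1 longer) and retained_intron transcripts (right; HNRNPU-209 shorter, HNRNPU-217 longer). Coding counts with the shorter end are 2818 to 5534 in siRNA-NC against 740 to 946 in si-AC010789.1, while HNRNPU-209 is higher in all 3 si-AC010789.1 libraries.

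HNRNPU-204, a minor coding transcript (602 residues) that starts downstream of this exon 1, had 39, 36 and 47 counts in siRNA-NC against 96, 165 and 297 in si-AC010789.1. Every si-AC010789.1 value was higher, and the spread within that group was also large. The log2 fold change was 2.22 (standard error 0.455), with an adjusted p of 0.414 from edgeR and 0.00221 from DESeq2.

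In HNRNPD, the coding isoform HNRNPD-203 was separate between the groups. It encodes 306 residues, with exon 2 and without exon 7, and had 634, 767 and 710 counts in siRNA-NC against 360, 304 and 340 in si-AC010789.1. Both groups were tight and apart, and the level was close to 2-fold lower (log2 fold change -1.02, standard error 0.149). The adjusted p was 0.217 from edgeR and 2.67e-06 from DESeq2. As a share of the gene it was 23.9%, 26.2% and 21.4% against 14.1%, 10.6% and 10.1% (log2 change -1.03, edgeR adjusted p = 0.360), while the log2 fold change of the gene sum was 0.04.

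The other HNRNPD isoforms varied from library to library. HNRNPD-202 (336 residues, without exon 2) had 523, 709 and 808 counts against 570, 1124 and 301. HNRNPD-201 (355 residues, with both exons) had 479, 634 and 664 against 515, 350 and 393. The 260-residue form, with an incomplete frame, had 653, 381 and 542 against 391, 802 and 850. The 221-residue form, also incomplete, had 174, 29 and 243 against 532, 1 and 1. Over all transcripts with the junctions concerned, a sum made after the values were seen, exon 2 was in 71.2%, 67.0% and 66.7% of counts in siRNA-NC against 70.7%, 34.7% and 71.3% in si-AC010789.1. Exon 7 was in 60.7%, 58.6% and 64.2% against 72.8%, 81.5% and 29.6%. Neither exon separated the groups, and in si-AC010789.1 the 3 libraries lay far apart.

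The NMD share of HNRNPD was 0.452%, 6.07% and 3.64% in siRNA-NC against 1.10%, 0.523% and 38.9% in si-AC010789.1. The last value came from 1 transcript in 1 library, HNRNPD-211, with 1301 counts in si-AC010789.1 replicate 3 and 13 in each of the other 2 (Wilson interval of the share 37.2% to 40.5%). The log2 change of the share was 1.99 with a standard error of 1.86, and it was -2.07 without that library. HNRNPD-211 shares 90.2% of its exonic bases with HNRNPD-202, which was lowest in the same library. The retained_intron share of HNRNPD, all of it HNRNPD-210, was lower in each si-AC010789.1 library, at 5.46%, 6.69% and 5.36% against 3.68%, 4.29% and 3.82% (log2 change -0.57, standard error 0.119, unadjusted p = 0.00522, edgeR adjusted p = 0.622).

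**Figure D4:**
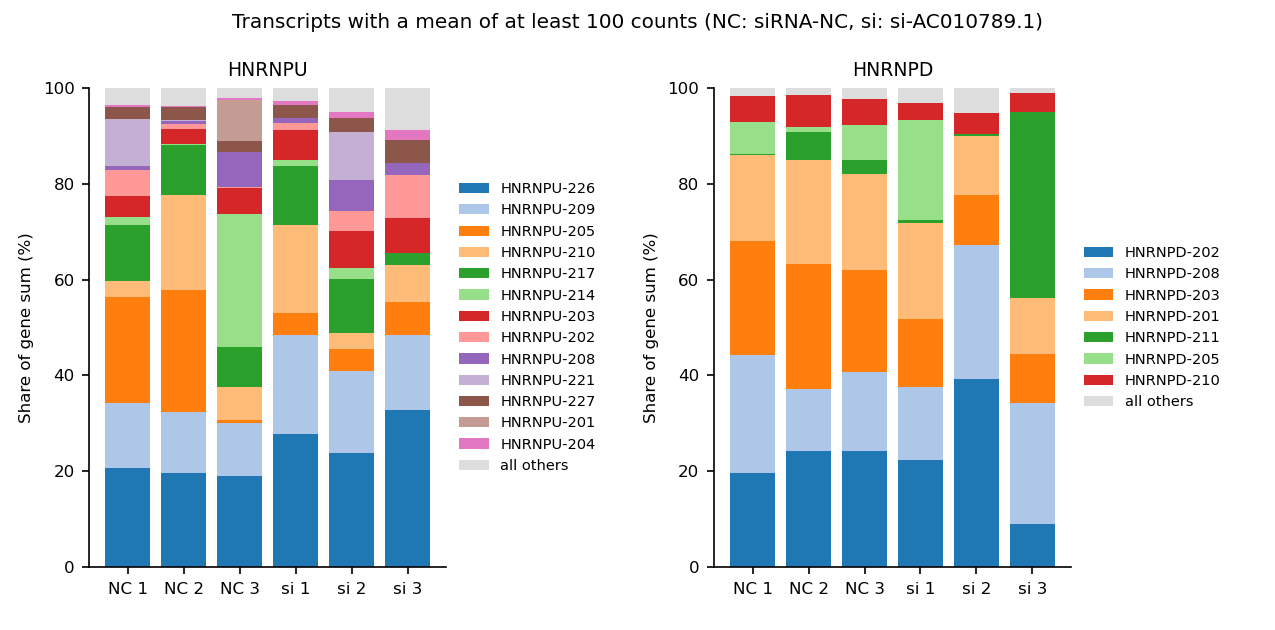
Share of the gene sum (y axis, percent) of each transcript with a mean of at least 100 counts, for HNRNPU (left) and HNRNPD (right), with 1 bar per library. HNRNPU-205 nearly vanishes in siRNA-NC replicate 3, where HNRNPU-214 and HNRNPU-201 appear, and HNRNPD-211 is large only in si-AC010789.1 replicate 3 of the 6 libraries.

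HNRNPK had a low NMD share that was separate between the groups. It was 1.39%, 1.08% and 1.32% in siRNA-NC against 1.65%, 1.77% and 2.01% in si-AC010789.1, all from HNRNPK-207 (log2 change 0.52, standard error 0.127, unadjusted p = 0.00981, edgeR adjusted p = 0.760). The transcript had 170, 151 and 185 counts against 189, 202 and 234, while the main coding transcript HNRNPK-201 had 9931, 11034 and 11104 against 8975, 8972 and 9015. The retained_intron share of HNRNPK stayed between 4.13% and 4.97% in all 6 libraries. HNRNPM had an NMD share of 11.2%, 7.45% and 13.3% in siRNA-NC against 15.8%, 14.1% and 12.7% in si-AC010789.1, and these groups overlapped (log2 change 0.41, standard error 0.236, edgeR adjusted p = 1). All of it was HNRNPM-214, whose frame ends after 99 residues.

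In HNRNPH1 none of the type shares was separate between the groups, and the protein_coding share ran from 43.5% to 53.2% within siRNA-NC alone. Its retained_intron share was 37.3%, 40.4% and 44.3% in siRNA-NC against 43.6%, 39.2% and 40.7% in si-AC010789.1, a log2 change of 0.02 (standard error 0.076). The most abundant of its 16 retained_intron transcripts, HNRNPH1-227, had 677 to 697 counts in siRNA-NC against 622 to 701 in si-AC010789.1. Its NMD share ranged from 7.19% to 10.1%, led by HNRNPH1-218. In HNRNPC the retained_intron share ranged from 9.58% to 16.5% in siRNA-NC and from 12.96% to 20.2% in si-AC010789.1, mostly HNRNPC-210, and its NMD share, all HNRNPC-232, from 0.561% to 2.68% over all libraries.

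In HNRNPA2B1 retained_intron transcripts took 4.38% to 8.37%. HNRNPA2B1-204, the most abundant, keeps 2 introns, among them the first, of 2839 bases (chr7:26197733-26200571, minus strand). HNRNPA2B1-206, of the same type with 349 to 598 counts, overlaps exons of CBX3 on the other strand by 368 bases. Without it, a step made after the values were seen, the retained_intron share was 2.51% to 5.63%. The NMD share was 1.48% to 2.22%, all from HNRNPA2B1-203, which ends at the same stop as the coding transcripts. In HNRNPA1 the only NMD transcript had 12 to 19 counts per library, and retained_intron transcripts, led by HNRNPA1-212, took 3.34% to 6.65%. In HNRNPDL 3 NMD transcripts with the normal stop, led by HNRNPDL-203, took 1.73% to 5.73%. None of these shares was separate between the groups.

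Coding isoforms of the other genes gave no call either. None of 60 isoform shares of the members passed an adjusted p of 0.05 with edgeR (0.0268% of 22362 for all genes) or with limma (0.286% of all), and 5 had an unadjusted p under 0.05 (4.46% of all). HNRNPA2B1 was mainly the 341-residue protein of HNRNPA2B1-202, 84.3% to 90.5% of its counts. HNRNPA1 was mainly the 320-residue protein of HNRNPA1-203 (48.8% to 56.4%), followed by the 372-residue form (24.1% to 33.6%). Its 191-residue form, with an incomplete frame, took 10.3%, 9.41% and 8.80% in siRNA-NC against 11.5%, 13.7% and 10.8% in si-AC010789.1. These groups were separate and higher in si-AC010789.1 (log2 change 0.34, standard error 0.123, edgeR unadjusted p = 0.0396). HNRNPK was 82.7% to 84.02% the 463-residue form of HNRNPK-201, and HNRNPF 95.3% to 96.6% the 415-residue form. In HNRNPM the 730-residue form of HNRNPM-217 and the 691-residue form took 39.9% to 55.0% and 26.5% to 33.9%. In HNRNPDL the 420-residue form of HNRNPDL-201 ranged from 39.8% to 71.0% and the 301-residue form from 21.2% to 45.6%, with both groups covering most of that range. The most abundant coding transcript of HNRNPH1 is annotated with an incomplete frame and had 836 to 1039 counts. The share of its 185-residue form, from HNRNPH1-231 with an incomplete frame, was separate and lower in si-AC010789.1, at 16.6% ± 1.11 against 13.2% ± 1.20 (SD, n = 3, log2 change -0.33, edgeR adjusted p = 0.877).

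Among the 125 tested transcripts of the members, edgeR called 0 (0.0135% of 44319 for all genes), 10 had an unadjusted p under 0.05 (5.73% of all) and DESeq2 called 2 (1.52% of all), HNRNPU-204 and HNRNPD-203. The groups did not overlap for 18 of 125, beside 14% of all transcripts. Of these, 4 had an absolute log2 fold change over 1: HNRNPC-205, HNRNPU-204, HNRNPC-222 and HNRNPD-203. HNRNPC-205 (293 residues) had 2, 12 and 12 counts in siRNA-NC against 70, 185 and 12 in si-AC010789.1, so the groups touched in counts and were apart only after scaling for depth. Its log2 fold change was 3.42 (standard error 1.14, edgeR adjusted p = 0.818). HNRNPC-222 (292 residues) had 445, 356 and 282 counts against 234, 210 and 72 (log2 fold change -1.03, edgeR adjusted p = 0.913), while the main transcript HNRNPC-227 had 1551, 1678 and 1984 against 1669, 563 and 1321.

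Single transcripts were far less even within a group than gene sums. In 68 of the 125 (54.4%) the highest library of a group was more than 2-fold above the lowest, and this held for 28 of the 66 with a mean of at least 100 counts. Gene sums stayed within 1.37-fold in both groups. The spread was concentrated in HNRNPC (17 of 21 transcripts), HNRNPU (17 of 22) and HNRNPDL (6 of 8), and it was absent from the 5 transcripts of HNRNPF. As fitted by edgeR over all features, the biological coefficient of variation (the relative spread of replicates) was 0.170 for gene sums, 0.385 for type sums and 0.698 for transcripts.

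**Figure D5:**
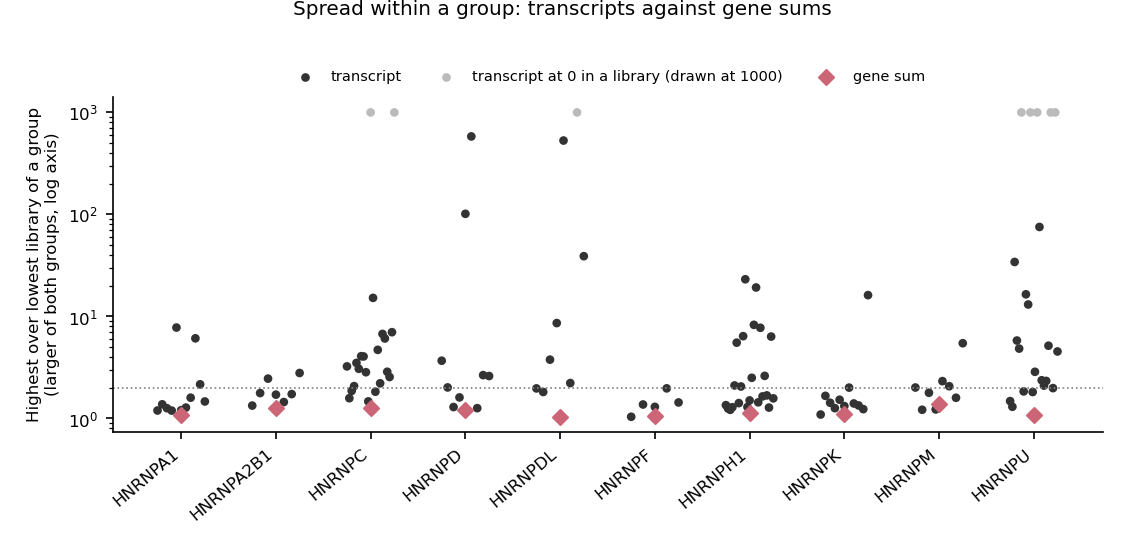
For each tested transcript (dots) and gene sum (diamonds), the highest over the lowest library of a group, the larger of both groups (y axis, log scale), with grey dots for transcripts at 0 in a library. The dotted line marks 2-fold, which 68 of 125 transcripts exceed and no gene sum does.

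The other 3 lists were read from the same gene test, in which 0.982% of all genes passed an adjusted p of 0.05 and 17.2% had an unadjusted p under 0.05. Of 23 other hnRNP genes, 22 were tested and 1 passed an adjusted p of 0.05, PTBP1, with 6 at an unadjusted p under 0.05 (3 higher and 3 lower) and a median log2 fold change of 0.01. PTBP1, also known as hnRNP I, represses exons next to pyrimidine tracts. It rose from 166, 187 and 220 CPM in siRNA-NC to 341, 298 and 312 CPM in si-AC010789.1 (log2 fold change 0.73, standard error 0.108, edgeR adjusted p = 0.0446). The call was lost when any single library was left out. Its coding transcript PTBP1-202 had 448, 515 and 578 counts against 2388, 2027 and 1884 (log2 fold change 2.09, edgeR adjusted p = 0.0837), while its NMD transcripts had 221, 120 and 24 counts against 0, 922 and 0.

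Of 21 nonsense-mediated decay factors, all tested, 0 passed in edgeR or DESeq2 and 2 had an unadjusted p under 0.05. SMG8, a subunit of the decay machinery, had a log2 fold change of 0.29 (18.03 ± 9.35 to 21.997 ± 2.71 CPM), and its groups overlapped. Of 13 tested SR splicing factors, 0 passed in edgeR or DESeq2 and 0 had an unadjusted p under 0.05. SRSF2 and SRSF8 had the largest log2 fold changes, 0.43 (117 ± 41.3 to 157 ± 3.12 CPM) and -0.25 (22.7 ± 1.12 to 19.0 ± 2.34 CPM), and only the latter was separate between the groups. Median log2 fold changes were 0.01 for the decay factors and 0.0035 for the SR factors.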

How the data were processed

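RNA from 6 libraries of HCT116 cells was sequenced in paired ends after TruSeq preparation. The authors deposited 1 table of whole-number counts per Ensembl transcript, with no normalization and no columns left unused. The submitters' processing notes name CASAVA 1.8 and TopHat2 2.0.6 with the builds GRCh38 and mm10, and the study's methods name Cuffdiff; the counting program, how it divided reads shared by transcripts and its use of strand are not given in the sources used here. Values of single transcripts depend on that division. Gene sums depend on it much less, except where copies of a gene share its reads, as for HNRNPA1, HNRNPC and HNRNPK.

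Transcripts were matched to GENCODE v29 (98782 of 98886; the matched rows hold 99.897% to 99.931% of each library), which gave gene symbols, types, coordinates and transcript sequences. The 10 genes and all gene lists were chosen with earlier results of these data known. Counts were summed per gene, per gene and type, and per gene and coding length, filtered by filterByExpr (minimum 10, total 15) and tested with edgeR 4.0.16 in R 4.3.3 (TMM, quasi-likelihood, Benjamini-Hochberg over all features, adjusted p under 0.05), with the gene sum as offset for shares. The study's comparison with Cuffdiff could not be rerun from counts. Alternatives were DESeq2 1.42.0, limma 3.58.1, other scaling and filters, a replicate block and leaving out each library. The fits were tested on simulated data. Nearly all changed gene sums were called there, but most changed single transcripts were missed. For type and isoform shares the changes were planted in counts, so some shares moved little. How often a changed share would be missed was therefore not measured. The absence of a call for transcripts thus says little, and its weight for shares is not known. The planted changes were much larger than those seen in the gene sums of the 10 genes. How often gene-sum changes of that smaller size would be called was not tested. Exact permutation tests were two-sided, and Wilson intervals (95%) cover counting error only. A count of 3, taken as the floor, was 0.223 to 0.266 CPM.

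Named were all 10 genes; of each further list the genes with adjusted p under 0.05, or the 2 with the largest absolute log2 fold change where none passed; of each of the 10 genes the most abundant protein_coding, NMD and retained_intron transcript, any feature that passed, and up to 6 tested transcripts with separate groups and an absolute log2 fold change over 1. A gene of the further lists that this rule also covers is not reported here.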

Additional observations from a re-analysis of the deposited data

How the results depend on the processing

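No gene sum, type sum, type share, isoform share or transcript of the 10 hnRNPs passed an adjusted p of 0.05 under any alternative but DESeq2, which called 1 gene sum, 1 type sum and 2 transcripts where edgeR called 0 of each. The cause was not tested. Among the other hnRNP genes the 1 call became 0 without a filter on low counts, with the replicate block and in all 6 fits that left out 1 library (0 to 0). The decay factors gave 0 to 1 calls when 1 library was left out (1 without si-AC010789.1 replicate 1), and the SR factors 0 to 1 (1 without siRNA-NC replicate 2). Gene sums that changed sign when a library was left out ranged from -0.0387 to 0.139 for HNRNPA2B1, -0.150 to 0.0333 for HNRNPC, -0.0589 to 0.0885 for HNRNPD, -0.0584 to 0.0288 for HNRNPH1 and -0.0158 to 0.191 for HNRNPM on the log2 scale. The NMD shares of HNRNPU and HNRNPD ranged from -0.0574 to 1.42 and from -2.07 to 2.71, with the lowest values without si-AC010789.1 replicates 2 and 3. The protein_coding share of HNRNPU stayed between -0.34 and -0.25, but was -0.70 with limma on log2 ratios, a different scale.

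Over all genes, edgeR's 135 gene calls became 464 with DESeq2, 69 without a filter, 0 with the replicate block and 12 to 37 without 1 library. The 29 type sums became 599, 9, 0 and 0 to 9 in the same order, and the 6 transcripts 675, 0, 0 and 0 to 6. The 2 type shares became 17 with limma, 0 with the block and 2 to 7 without 1 library, and the 6 isoform shares 64, 0 and 0 to 7. Whether libraries with the same replicate number were paired by design is not given in the sources used here. Same-numbered libraries had correlations of 0.111, 0.011 and 0.016 of their deviations from the group means. The first was the highest of all pairs, but not every library correlated best with its own number. With 3 libraries a group these values cannot settle whether the samples were paired.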

Other observations

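Several transcripts, singled out after their values were seen, were counted mainly in 1 library. HNRNPDL-206 had 523 counts in si-AC010789.1 replicate 3 and at most 20 in the others, HNRNPH1-216 had 658 in si-AC010789.1 replicate 2 and at most 186 in the others, and HNRNPM-204 had 181 in siRNA-NC replicate 2 and 0 in the others. HNRNPDL-206 lies to 96.6% within the exons of HNRNPDL-204, and HNRNPH1-216 to 98.6% within those of HNRNPH1-202, which had 67 counts in that library and 141 to 391 in the others.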
